A study of Mus musculus with 6 samples.

Results

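The transcripts of 10 transcription factors of intestinal identity and absorptive differentiation were examined by gene symbol: *Hnf4a*, *Hnf4g*, *Cdx1*, *Cdx2*, *Klf4*, *Klf5*, *Gata4*, *Gata6*, *Maf* and *Prdm1*. All 10 were found once each among the 56884 genes counted, and all 10 were abundant enough to be among the 14066 genes tested at day 6. The 6 RNA sequencing libraries came from cultured mouse small intestinal organoids, and from the cells of these that were sorted for the Lgr5-GFP stem cell reporter. The library titles do not state which libraries were whole organoids and which were sorted cells. Every organoid, vehicle controls included, carried *Ythdf2* alleles flanked by loxP sites (Ythdf2fl/fl), Villin-CreERT2, which is driven by an epithelial promoter, and Lgr5-EGFP-IRES-CreERT2, an allele that puts EGFP and CreERT2 into the *Lgr5* locus. CreERT2 is a recombinase that is switched on by 4-hydroxytamoxifen (4-OHT). There were 2 libraries labelled EtOH (ethanol, the vehicle) and 2 labelled 4-OHT (0.5 µM) at day 6 of treatment, and 1 of each at day 4. The labels do not say that the libraries came from separate animals or cultures, so p-values measure the spread between these libraries, which may be technical.

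Hepatocyte nuclear factors HNF4A and HNF4G are nuclear receptors that bind enhancers and promoters of enterocyte genes and act in part redundantly. CDX1 and CDX2 are caudal-type homeobox factors that set intestinal identity, and GATA4 and GATA6 are zinc finger factors, GATA4 being known for the proximal and middle small intestine. KLF4 is a Krüppel-like zinc finger factor of differentiated, non-dividing epithelium and goblet cells, whereas its relative KLF5 is known from dividing crypt cells. MAF, a basic leucine zipper factor, acts in the differentiation of villus enterocytes, and PRDM1 (BLIMP1) is a zinc finger repressor that maintains the suckling state of the intestine before weaning.

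Library totals were 14345379 to 21461835 gene counts. *Ythdf2*, the floxed gene, was higher and not lower in the libraries labelled 4-OHT, with 1563 and 1312 counts (EtOH) against 4463 and 3816 at day 6, and 1483 against 2466 at day 4. Libraries are therefore named by their labels, and each fold change sets the 4-OHT label over the EtOH label. Whether the labels were exchanged was not tested; if they were, every direction given here would be the opposite. Epithelial genes were present in every library and immune, mesenchymal and endothelial genes were near 0: the 15 of them summed to 6.12 to 13.4 CPM (counts scaled to a common library size, with factors from the trimmed mean of M-values, TMM), and *Vim* was the 1 of 15 abundant enough to test. None of the 15 was at 0 in every library. At day 4 the share of reads that fell outside genes was larger (6.19% and 6.70%) than at day 6 (2.63% to 3.76%).

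Short stretches just upstream of the start site of *Maf*, which rose, and of 5 enterocyte genes that rose are shown for the letters that these factor families are known to bind. They were read from GRCm39 and run 5′ to 3′ on the gene's own strand up to the last base before the start of the reference transcript. Capitals mark matches, on either strand, to the letters of HNF4 (CAAAGNNCA), of CDX factors (TTTATNG) or of GATA factors (AGATAA). *Maf* is shown for 140 bases, and each of the others for 250, with no annotated exon inside.
*Maf* (chr8:116434580-116434719, minus strand): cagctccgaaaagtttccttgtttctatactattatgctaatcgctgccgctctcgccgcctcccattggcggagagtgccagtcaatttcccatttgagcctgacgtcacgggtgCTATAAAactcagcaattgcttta
*Apob* (chr12:8027398-8027647, plus strand): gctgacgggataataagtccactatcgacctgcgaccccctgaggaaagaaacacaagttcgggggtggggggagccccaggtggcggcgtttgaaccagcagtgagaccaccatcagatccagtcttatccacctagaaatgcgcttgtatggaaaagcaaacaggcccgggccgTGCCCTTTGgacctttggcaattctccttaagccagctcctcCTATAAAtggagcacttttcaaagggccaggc
*Treh* (chr9:44584280-44584529, plus strand): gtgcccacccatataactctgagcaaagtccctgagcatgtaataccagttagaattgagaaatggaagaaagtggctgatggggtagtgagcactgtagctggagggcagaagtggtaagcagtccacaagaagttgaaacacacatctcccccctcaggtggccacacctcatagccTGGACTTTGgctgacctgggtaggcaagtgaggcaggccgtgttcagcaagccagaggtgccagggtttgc
*Alpi* (chr1:87029329-87029578, minus strand): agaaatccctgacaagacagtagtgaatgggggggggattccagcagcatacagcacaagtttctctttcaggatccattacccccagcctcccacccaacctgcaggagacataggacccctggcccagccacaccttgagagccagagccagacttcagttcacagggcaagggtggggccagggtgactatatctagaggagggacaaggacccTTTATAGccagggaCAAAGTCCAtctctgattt
*Fabp1* (chr6:71176559-71176808, plus strand): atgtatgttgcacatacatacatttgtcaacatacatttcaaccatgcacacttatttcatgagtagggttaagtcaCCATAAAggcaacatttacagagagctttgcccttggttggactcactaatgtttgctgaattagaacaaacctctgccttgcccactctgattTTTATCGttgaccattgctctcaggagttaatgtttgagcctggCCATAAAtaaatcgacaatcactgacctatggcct
*Lct* (chr1:128256056-128256305, minus strand): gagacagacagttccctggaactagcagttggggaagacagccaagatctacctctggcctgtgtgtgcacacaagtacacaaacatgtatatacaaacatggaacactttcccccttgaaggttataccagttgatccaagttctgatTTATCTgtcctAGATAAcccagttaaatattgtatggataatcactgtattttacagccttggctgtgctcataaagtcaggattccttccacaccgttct
In the *Maf* stretch the 1 marked match is to the CDX letters at position −24 from the start, and it shares its bases with a TATAAA element. The half-site letters TGCTGA of the MAF family match there on the opposite strand at −15 and are not marked. *Apob*, which encodes the structural protein of chylomicrons, has an HNF4 match at −74 and a CDX match at −32. That CDX match too shares its bases with a TATAAA element. *Treh* (trehalase) has an HNF4 match at −71. *Alpi* (intestinal alkaline phosphatase) has an HNF4 match at −19 and a CDX match at −33, which shares bases with the letters TATAAA on the opposite strand. *Fabp1* (a fatty acid-binding protein) has 3 CDX matches at −173, −79 and −35, and *Lct* (lactase) has 2 GATA matches at −101 and −90. Across the 250 bases upstream of 21654 protein-coding genes, 5.39% held the HNF4 letters, 9.55% the CDX letters and 9.62% the GATA letters. Among 30 enterocyte genes, 7, 9 and 6 held them. Of the 21 of these that rose at day 6, 6, 6 and 4 held them, and of the 9 that did not pass, 1, 3 and 2. All stretches shown come from genes with a match, and a link between the letters and the rise was not tested. The KLF letters GGGNGTGG were found in 16.9% of all stretches and in 5 of the 30, and the half-site TGCTGA of the MAF family in 14.8% and in 6 of the 30. Of the 9 enterocyte genes with CDX letters, 4 had a match that shared bases with a TATAAA element, as did 710 of 2067 among all genes with them. A match is a description of the letters and not a site.

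At day 6, *Klf4* and *Maf* rose and the other 8 factors did not pass the test, while most enterocyte genes rose. These 2 of 10 compare with 2.51% of all genes tested that were called (2.27% higher, 0.235% lower), a call being an adjusted p under 0.05. The median log2 fold change of the 10 was 0.19, against −0.013 for all genes tested. Both libraries labelled 4-OHT lay above both EtOH libraries for *Hnf4g*, *Cdx2*, *Klf4*, *Gata6*, *Maf* and *Prdm1*, that is 6 of 10 factors against 20.5% of all genes. *Cdx1* was the 1 of 10 with both below, against 18.4% of all genes, and *Hnf4a*, *Klf5* and *Gata4* overlapped. In bulk samples, a change in the share of cells of a type and a change in RNA per cell cannot be told apart.

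**Figure D1:**
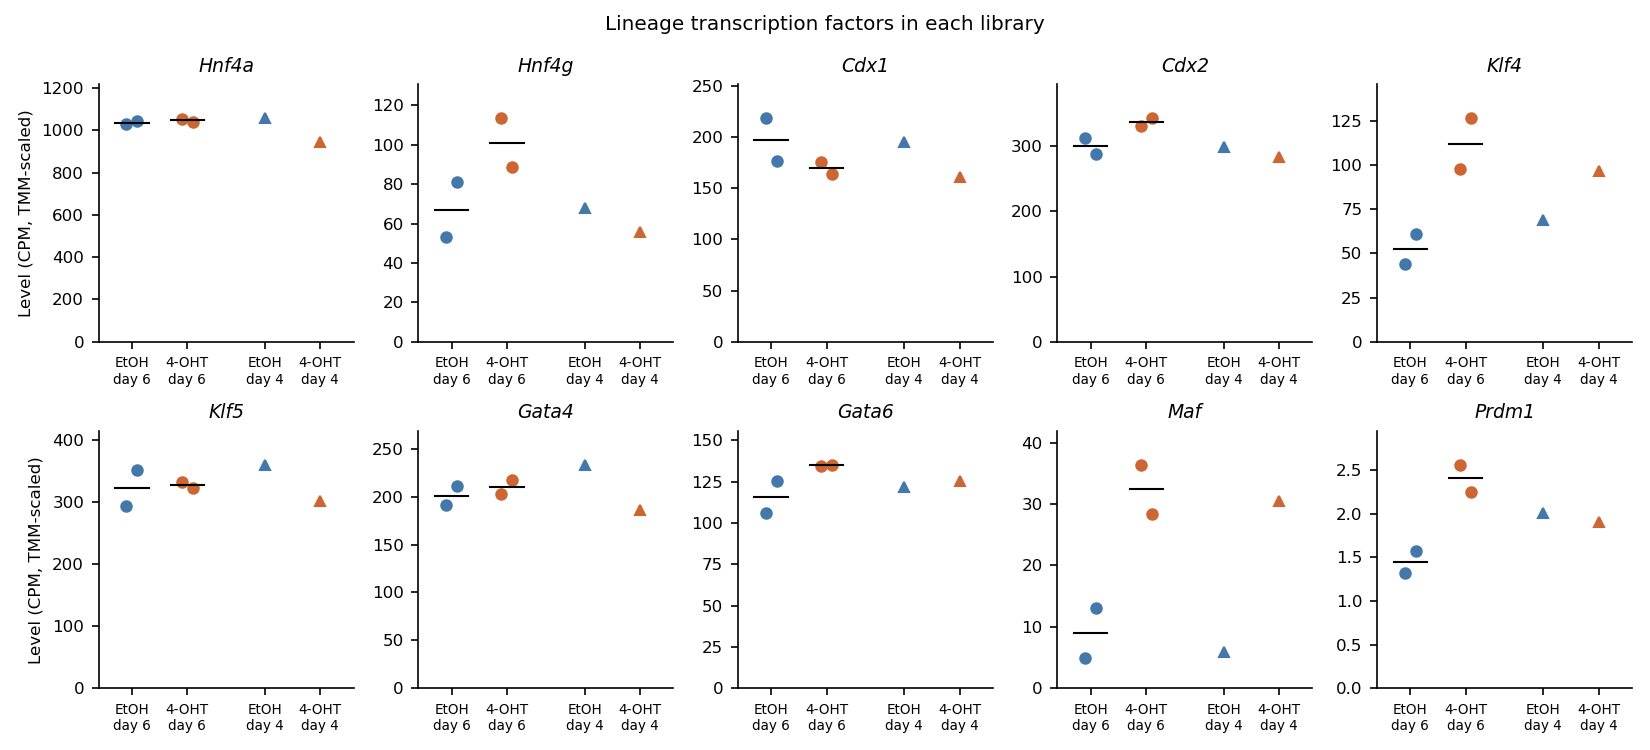
Level of each factor in each library in CPM (y axis from 0, own scale per panel) by label and day (x axis). Circles are day 6 libraries with their mean as a line (n = 2 per label), triangles are day 4 libraries (n = 1 per label). *Klf4* and *Maf* stand higher in all libraries labelled 4-OHT than in any labelled EtOH, whereas *Hnf4a* stays between 945 and 1057 CPM.

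*Klf4* (ENSMUSG00000003032; chromosome 4, 55527139 to 55532528, minus strand, GRCm39) had 831 and 1055 counts in the EtOH libraries of day 6 and 2096 and 2361 in those labelled 4-OHT. Its level was 44.1 and 61.2 CPM with EtOH and 97.6 and 127 CPM in the libraries labelled 4-OHT, a mean of 52.6 ± 12.1 against 112 ± 20.5 CPM (SD, n = 2 each). The groups did not overlap, and the gap between them was wider than the spread within either. The change was 2.13-fold, with a 95% interval of 1.54 to 2.93. On the log2 scale this is 1.09 with a standard error (SE) of 0.21, and the edgeR adjusted p, taken over all genes tested, was 0.0238. Single libraries decided the call: in refits on 3 libraries *Klf4* did not pass without EtOH replicate 1 or without 4-OHT replicate 2. There the lone library of a label is assumed to vary like the others. The log2 fold changes without these libraries were 0.87 and 0.89, from a separate fit that kept the spread estimated from all 4 libraries.

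*Maf* (ENSMUSG00000055435; chromosome 8, 116409632 to 116434579, minus strand, GRCm39) was low with EtOH at day 6, at 93 and 225 counts, and had 782 and 529 counts in the libraries labelled 4-OHT. In CPM it stood at 4.93 and 13.1 with EtOH and at 36.4 and 28.4 with the label 4-OHT, a mean of 8.99 ± 5.75 against 32.4 ± 5.70 (SD, n = 2 each). The EtOH replicates differed from each other more, in proportion, than for any other of the 10 factors, yet both lay below both libraries labelled 4-OHT. The change was 3.61-fold with a 95% interval of 2.03 to 6.42, or 1.85 on the log2 scale (SE 0.37; edgeR adjusted p 0.0307). Without EtOH replicate 1 the log2 fold change was 1.31 and without EtOH replicate 2 it was 2.71, both with the spread estimated from all 4 libraries. In a separate refit on 3 libraries *Maf* did not pass without EtOH replicate 1. With a robust estimate of the spread the edgeR adjusted p was 0.0731. Of the exon bases of *Maf*, 4.74% overlap the antisense gene *Gm15655*, which had 0 counts in all 6 libraries.

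Among the HNF4 receptors, *Hnf4a* (chromosome 2, 163348728 to 163414830, plus strand) was nearly level. It had 1028 and 1041 CPM with EtOH and 1054 and 1039 CPM with the label 4-OHT at day 6, and the groups overlapped. The 95% interval of its change, 0.767 to 1.33-fold around 1.01-fold, leaves out a doubling and a halving, and its adjusted p was 0.991 (edgeR). *Hnf4g* (chromosome 3, 3573084 to 3724860, plus strand) read 53.1 and 81.0 CPM with EtOH against 113 and 88.6 CPM. Both libraries labelled 4-OHT were above both EtOH libraries, but the EtOH replicates were farther apart than the nearest libraries of the 2 labels. The log2 fold change of 0.59 (SE 0.22; 1.50-fold, 95% interval 1.07 to 2.12) had an unadjusted p of 0.0236 in edgeR and did not pass (adjusted p 0.33).

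**Figure D2:**
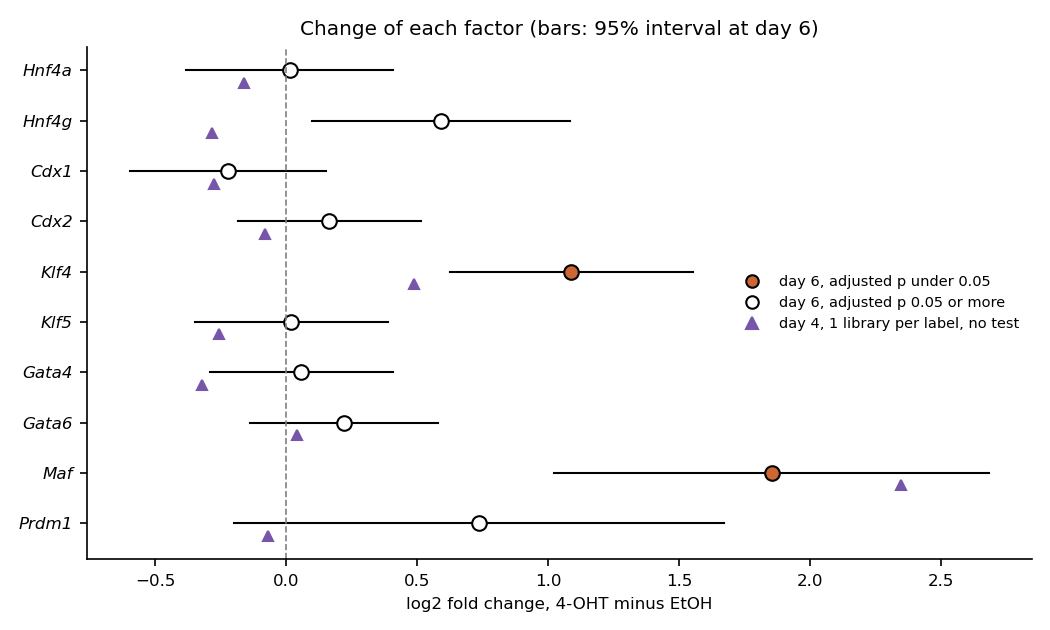
Log2 fold change of each factor (x axis, libraries labelled 4-OHT minus EtOH). Circles give day 6 with the 95% interval of the edgeR fit as bars (n = 2 per label), filled where the adjusted p was under 0.05, and triangles give day 4 (n = 1 per label, no test). *Klf4* and *Maf* are the filled points, and *Hnf4g* is the factor whose day 6 and day 4 values lie farthest apart, at 0.59 and −0.28.

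The homeobox pair did not pass in either direction. *Cdx2* (chromosome 5, 147237615 to 147244091, minus strand) had 312 and 287 CPM with EtOH and 330 and 343 CPM with the label 4-OHT, a log2 fold change of 0.16 (95% interval −0.19 to 0.51). *Cdx1* had 218 and 176 CPM against 176 and 164 CPM, and its log2 fold change was −0.22 (−0.60 to 0.15). The edgeR adjusted p values were 0.845 and 0.769.

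The GATA pair did not pass either. *Gata4* (chromosome 14, 63436362 to 63509141, minus strand) had 191 and 211 CPM with EtOH and 203 and 217 CPM with the label 4-OHT, so that the groups overlapped, and a log2 fold change of 0.06 (95% interval −0.29 to 0.41). *Gata6* had 106 and 125 CPM against 134 and 135 CPM, a log2 fold change of 0.22 (−0.14 to 0.58; edgeR adjusted p 0.761). Of its exon bases 12.5% overlap *Gata6os* on the opposite strand, and reads from the shared part cannot be assigned where the counting ignored strand, which is not given in the sources used here.

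*Klf5* (chromosome 14, 99536086 to 99552473, plus strand) did not pass, unlike its relative *Klf4*, and the difference between them was not tested. It had 293 and 353 CPM with EtOH and 333 and 323 CPM with the label 4-OHT at day 6. Its groups overlapped and its log2 fold change was 0.02 (95% interval −0.35 to 0.39; edgeR adjusted p 0.988). *Prdm1* (chromosome 10, 44313171 to 44404497, minus strand) was the lowest factor, with 25 and 27 counts with EtOH and 55 and 42 with the label 4-OHT. These are 1.33 and 1.57 CPM against 2.56 and 2.25 CPM. Its log2 fold change of 0.74 had an interval of −0.20 to 1.67, or 0.870 to 3.19-fold, so that no change was detectable at this depth (edgeR adjusted p 0.647).

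Levels of different genes were compared per length, as RPKM, here the CPM per kilobase of exon, over the exon bases of all annotated transcripts of a gene. With EtOH at day 6 the order of mean RPKM was *Hnf4a* (205), *Cdx2* (132), *Cdx1* (99.6), *Klf5* (61.6), *Gata4* (35.3), *Klf4* (16.7), *Hnf4g* (15.3), *Gata6* (12.5), *Maf* (0.970) and *Prdm1* (0.257). The replicates of *Hnf4g* overlapped those of *Klf4* above it and of *Gata6* below it, and the other neighbours in this order did not overlap. In the libraries labelled 4-OHT *Klf4* reached 35.6 ± 6.50 RPKM and overlapped *Gata4* at 36.9 ± 1.80 (SD, n = 2 each). The order of means itself was the same under both labels.

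Within each family pair, the ratio of RPKM was taken in each library. *Klf5* exceeded *Klf4* 4.00 and 3.46 times with EtOH at day 6 and 2.05 and 1.53 times with the label 4-OHT, and at day 4 3.15 (EtOH) and 1.88 times (4-OHT). This ratio was lower in all 3 libraries labelled 4-OHT than in all 3 labelled EtOH. The ratio of *Cdx2* to *Cdx1* was 1.25 and 1.42 with EtOH against 1.64 and 1.83 at day 6, and 1.34 against 1.54 at day 4, so that it was higher under the label 4-OHT in all of these libraries. *Hnf4a* exceeded *Hnf4g* 16.9 and 11.2 times with EtOH and 8.10 and 10.2 times with the label 4-OHT at day 6, but 13.5 and 14.8 times at day 4, where the order was the opposite. *Gata4* to *Gata6* lay between 2.41 and 3.10 in all 6 libraries. These ratios were not tested.

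**Figure D3:**
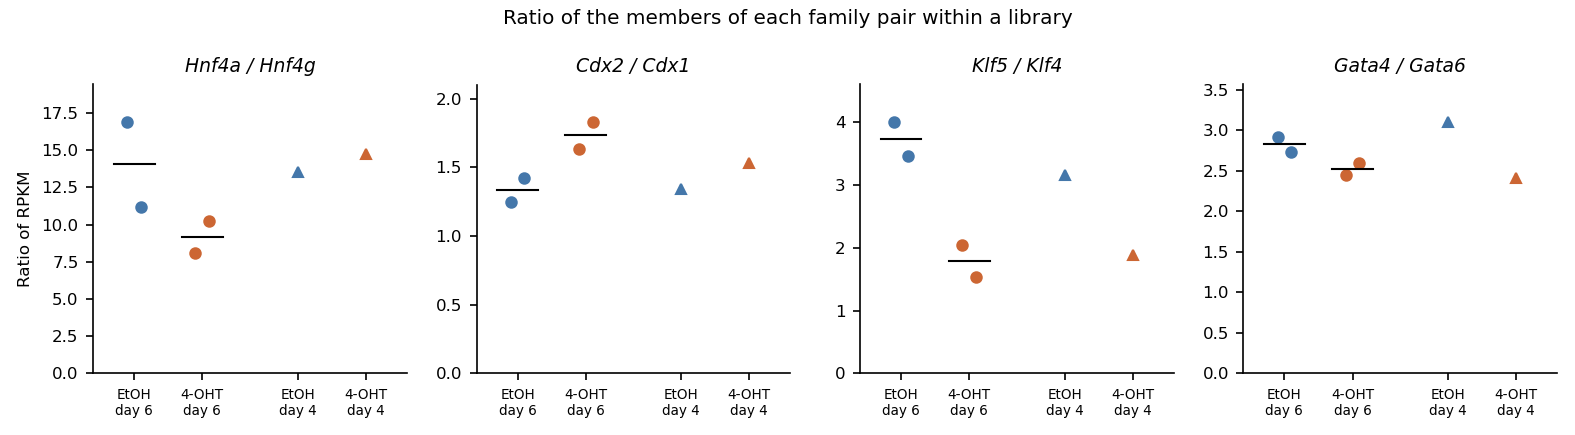
Ratio of RPKM of the members of each family pair within a library (y axis from 0) by label and day. Circles are day 6 libraries with their mean as a line, triangles are day 4 libraries. *Klf5* to *Klf4* falls from 4.00 and 3.46 to 2.05 and 1.53 at day 6 and stands at 3.15 and 1.88 at day 4.

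Day 4 had 1 library per label, and its titles hold the letters ISC, which the day 6 titles lack, while its library names come from another number series. Neither can be told apart from day, here or in the comparisons of both days. Day 4 values compare these libraries, carry no test and are shown with intervals that cover counting error only. *Maf* had 115 counts with EtOH and 449 with the label 4-OHT, or 5.91 against 30.5 CPM. Its ratio of counts, scaled by library totals without TMM factors, was 5.27 (exact 95% interval 4.29 to 6.53). *Klf4* had 1338 against 1418 counts, or 68.8 against 96.5 CPM, with a ratio of 1.43 (1.33 to 1.54) taken in the same way. Both libraries labelled 4-OHT at day 6 and the one at day 4 thus lay above all 3 EtOH libraries for these 2 factors. *Maf* was the 1 of 10 factors that was at least 2-fold higher at day 4, against 5.60% of all genes, and 0 of 10 were at least 2-fold lower, against 2.20%.

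The other 8 factors lay between −0.32 (*Gata4*) and 0.04 (*Gata6*) on the log2 scale at day 4. *Hnf4a* read 1057 CPM with EtOH and 945 with the label 4-OHT, *Cdx2* 299 and 283, *Cdx1* 195 and 161, *Klf5* 361 and 302, *Gata4* 234 and 187, *Gata6* 122 and 126, and *Hnf4g* 68.0 and 55.8. *Prdm1* had 39 and 28 counts, a ratio of 0.969 after scaling by library totals (0.574 to 1.62). Thus 7 of the 10 were lower and 3 higher at day 4, where 9 had been higher at day 6. Over all genes, 7040 of 14060 were lower at day 4 and 6778 of 14066 were higher at day 6. The difference between the day 6 and day 4 effects was tested with all 6 libraries in 4 groups. Of 14060 genes, 0 (0.00%) passed in edgeR, 228 had an unadjusted p under 0.05 and 6 passed by DESeq2. Of the factors, 0 passed by either tool. *Hnf4g* had the smallest unadjusted p (0.044 by edgeR, adjusted p 1.0), with a difference of 0.88 and a 95% interval of 0.03 to 1.73.

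When all 6 libraries were fitted with day as a term, the same 2 factors passed, against 4.39% of all genes called (3.67% higher, 0.718% lower). The log2 fold change of *Maf* was 2.02 (SE 0.30; edgeR adjusted p 0.00441) and that of *Klf4* 0.89 (SE 0.18; edgeR adjusted p 0.0201). For *Klf4* the adjusted p was 0.0761 without 4-OHT replicate 2 of day 6 (log2 fold change 0.72). The remaining 8 had values between −0.24 (*Cdx1*, adjusted p 0.35) and 0.47 (*Prdm1*, adjusted p 0.538). This fit narrows the interval of *Hnf4a* to −0.30 to 0.22 and that of *Cdx2* to −0.16 to 0.33 on the log2 scale. It contains the day 6 libraries and is no independent check.

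The enterocyte list, which holds 30 genes of absorption, digestion and the brush border and many known targets of HNF4, CDX2 and GATA4, was set beside the factors. Of the 30, 29 were higher at day 6, against 6778 of 14066 genes. By the edgeR test 21 of the 30 rose, against 2.27% of all genes, while 0 fell. The median log2 fold change was 1.37, against 0.19 for the factors and −0.013 for all genes tested. Leaving out EtOH replicate 1 brought the count of 21 to 9, and leaving out EtOH replicate 2 brought it to 10. The list was chosen with earlier results known and was not tested as a set.

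The change was largest for *Apoa1*. This apolipoprotein of chylomicrons and high-density lipoprotein read 36.9 ± 9.63 CPM with EtOH and 353 ± 61.3 CPM with the label 4-OHT (SD, n = 2 each), 3.25 on the log2 scale (SE 0.23; edgeR adjusted p 0.0001). *Slc15a1*, the oligopeptide transporter, rose by 2.78, *Krt20*, a keratin of differentiated epithelium, by 2.65, and *Apoc3* by 2.64 on the log2 scale. *Fabp1*, *Alpi* and *Lct*, whose upstream letters are shown above, rose as well. *Fabp1* had 87.6 ± 37.7 CPM with EtOH and 461 ± 54.6 CPM with the label 4-OHT, *Alpi* 102 ± 8.37 and 491 ± 20.4 CPM, and *Lct* 3.19 ± 0.893 and 11.8 ± 3.90 CPM (SD, n = 2 each). *Apoa4* changed by 2.15 and *Rbp2*, a retinol-binding protein, by 2.11 on the log2 scale, and 34.8% of the exon bases of *Apoa4* overlap *Gm10680* on the opposite strand. *Apob* (1.22, edgeR adjusted p 0.0493) and *Treh* (1.09, edgeR adjusted p 0.0309) are named for their HNF4 letters, after values were seen.

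The 9 enterocyte genes that did not pass were *Mttp*, *Fabp2*, *Vil1*, *Mep1a*, *Dpp4*, *Slc5a1*, *Cdh17*, *Myo1a* and *Dgat1*, named after their values were seen. *Cdh17*, a cadherin known as a CDX2 target, had 841 ± 56.3 CPM with EtOH and 1083 ± 75.2 CPM (SD, n = 2 each), 0.36 on the log2 scale (edgeR adjusted p 0.566). *Mep1a*, a brush border metalloprotease, was the 1 of 30 that was lower, at −0.46 (edgeR adjusted p 0.495). At day 4, 25 of the 30 were higher, against 7020 of 14060 genes, and 13 were at least 2-fold higher, against 5.60% of all genes. In the fit over both days 20 of the 30 rose and 0 fell, against 3.67% and 0.718% of all genes. *Vil1* passed in that fit (log2 fold change 0.53, edgeR adjusted p 0.024).

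**Figure D4:**
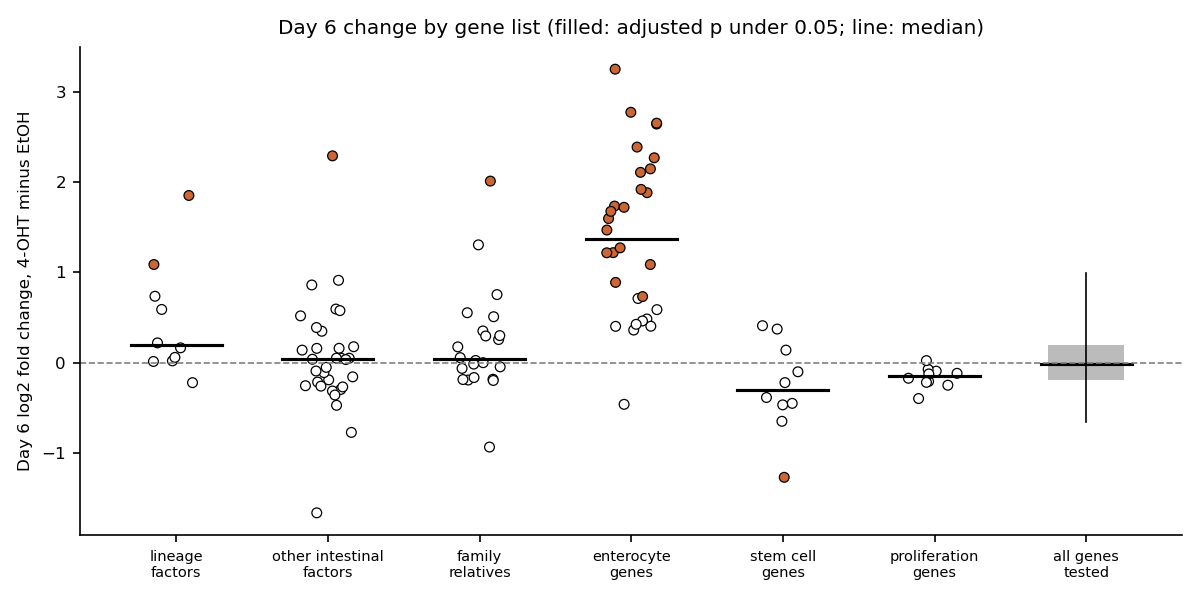
Day 6 log2 fold change (y axis, libraries labelled 4-OHT minus EtOH) of each gene of 6 lists and of all genes tested (grey box, middle 50% of genes; thin line, 5th to 95th percentile). Points are genes, filled where the edgeR adjusted p was under 0.05, and the thick line is the median. The enterocyte median lies at 1.37, and the 2 filled lineage factors are *Maf* and *Klf4*.

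Set side by side in each library, the summed enterocyte genes stood at 3665 and 3828 CPM with EtOH and at 7987 and 7095 CPM with the label 4-OHT at day 6, and at 3269 and 4539 CPM at day 4. The libraries with the higher sums, all labelled 4-OHT, were also those with the higher *Klf4* and *Maf* levels. *Hnf4a* ranged only from 945 to 1057 CPM across this range of sums, *Cdx2* from 283 to 343 CPM and *Gata4* from 187 to 234 CPM. *Cdx2* was nevertheless highest, at 330 and 343 CPM, in the day 6 libraries labelled 4-OHT, which had the highest sums. *Hnf4g* ranged from 53.1 to 113 CPM and was also highest there, at 113 and 88.6 CPM. At day 4 *Hnf4g* was lower with the label 4-OHT (55.8 against 68.0 CPM), although the enterocyte sum was higher. In the day 4 library labelled 4-OHT, *Maf* was at 30.5 CPM, within its day 6 range for that label, while the enterocyte sum of 4539 CPM was below both day 6 sums. Since the libraries fall into 2 sets by label, no correlation was computed.

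**Figure D5:**
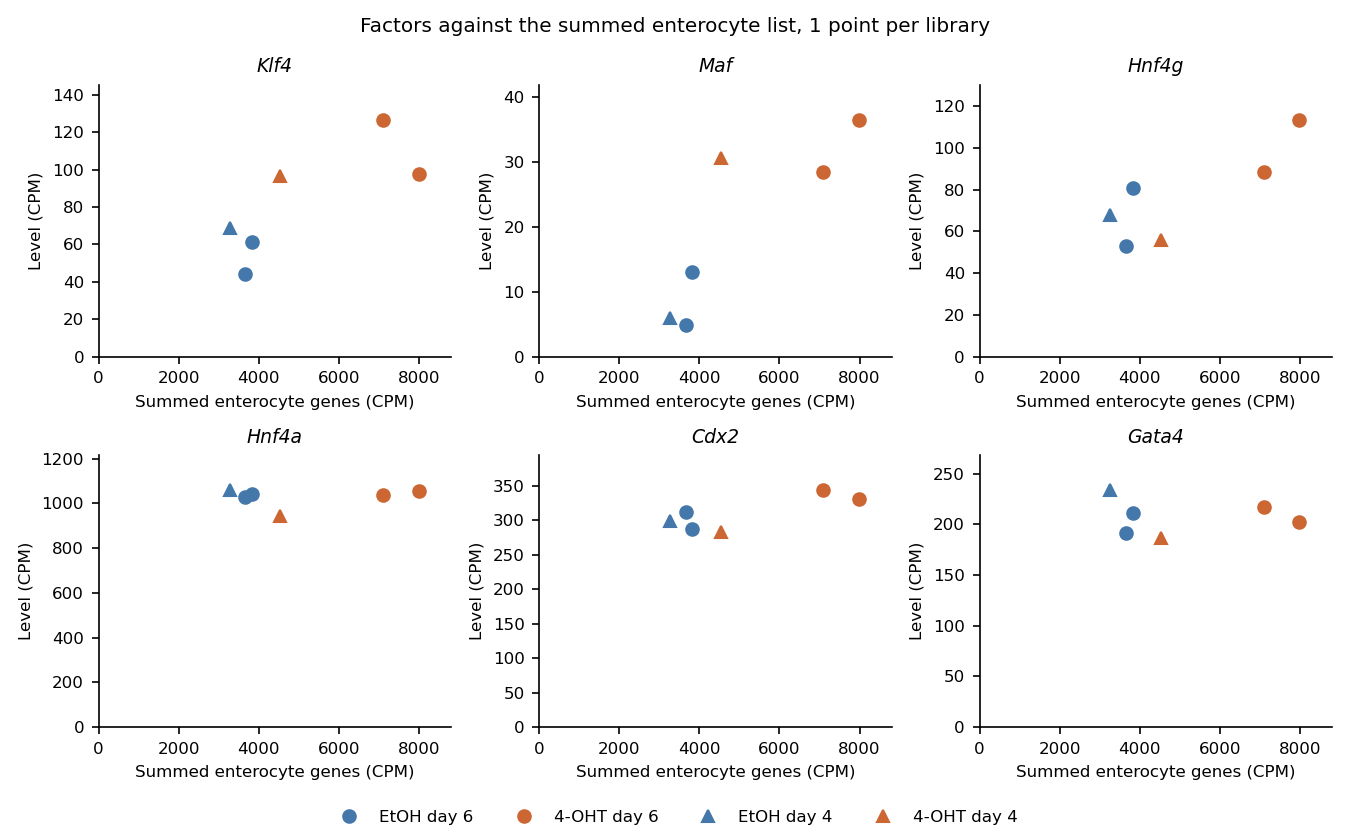
Level of 6 factors (y axes, CPM, from 0) against the summed CPM of the 30 enterocyte genes (x axis), 1 point per library, blue for EtOH, orange for 4-OHT, circles for day 6 and triangles for day 4. *Klf4* and *Maf* are higher in each library labelled 4-OHT. *Hnf4a*, *Cdx2* and *Gata4* vary less, while the enterocyte sum runs from 3269 to 7987 CPM. *Hnf4g* runs from 53.1 to 113 CPM and is highest in the day 6 libraries labelled 4-OHT.

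Of 32 other regulators of intestinal epithelium, all tested, 1 rose and 0 fell at day 6, a share near the 2.27% of all genes that rose, with a median log2 fold change of 0.04. The 1 was *Creb3l3*, a factor of lipid metabolism that is high at the villus tip, with 10.6 ± 3.20 CPM with EtOH and 52.0 ± 3.86 CPM with the label 4-OHT (SD, n = 2 each). Its change was 2.29 on the log2 scale (SE 0.24; edgeR adjusted p 0.00118). An unadjusted p under 0.05 was found for 7 of the 32 by edgeR, against 10.3% of all genes. In the fit over both days 2 of the 32 rose and 1 fell, against 3.67% and 0.718% of all genes. Besides *Creb3l3* these were *Ppard* (log2 fold change 0.55, edgeR adjusted p 0.031) and *Pou2f3* (−1.49, edgeR adjusted p 0.0368), named after their values were seen. Of 30 family relatives of the 10 factors, 22 were abundant enough to test, and 1 rose while 0 fell, against 2.27% and 0.235% of all genes. The 1 was *Klf15*, a Krüppel-like factor known for metabolic genes, with 21 and 33 counts (EtOH) against 125 and 119 at day 6, and 8 against 72 counts at day 4. Its day 6 change was 2.01 on the log2 scale (SE 0.39; edgeR adjusted p 0.0243). *Gata5*, the third GATA factor of the intestine, had 28.9 ± 1.99 and 35.6 ± 2.14 CPM (SD, n = 2 each) and did not pass (adjusted p 0.696, edgeR), and *Gata1*, *Gata2* and *Gata3* had 0 to 2 counts per library. Of 12 villus tip genes, 5 rose and 0 fell, with the same shares over all genes. These 5 include *Klf4*, *Creb3l3* and the enterocyte gene *Apoa4*, which are already counted in the lists above. *Enpp3*, an ectonucleotidase, rose by 4.22 and *Ada*, adenosine deaminase, by 2.49 on the log2 scale; 20.2% of the exon bases of *Ada* overlap *Pkig* on the opposite strand.

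The genes whose profiles over the 6 libraries were nearest to the factors that passed were found by the root-mean-square distance of centred log2 CPM. Nearest to *Klf4* were *Itgb5* (distance 0.114), an integrin subunit, *AA986860* (0.117) and *Kalrn* (0.127), a guanine nucleotide exchange factor. Nearest to *Maf* were *Ano1* (0.195), a calcium-activated chloride channel, *Plat* (0.283), tissue plasminogen activator, and *Ly6a* (0.296), a surface antigen. *Ano1* read 5.67 and 12.9 CPM with EtOH and 43.2 and 41.9 with the label 4-OHT at day 6, and 8.63 against 37.4 CPM at day 4.

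Markers of other cell types and states were read beside the factors, and their part in the rise of *Klf4* and *Maf* was not tested. Over all genes tested at day 6, 2.27% rose, 0.235% fell and 10.3% had an unadjusted p under 0.05 in edgeR. Without regard to the test, 6778 were higher and 7288 lower. Of 10 stem cell genes, 1 fell and 0 rose, and their summed level was 6147 and 5734 CPM with EtOH against 4006 and 3701 CPM. The 1 was *Olfm4*, with 2777 ± 751 against 1154 ± 238 CPM (SD, n = 2 each) (edgeR adjusted p 0.0312). *Olfm4* alone made up much of the difference in the sum. Of the 10 stem cell genes 7 were lower and 3 higher, with a median log2 fold change of −0.30, and 5 had an unadjusted p under 0.05 by edgeR. *Lgr5*, whose locus carries the GFP used in the sort, read 298 ± 66.9 and 218 ± 12.9 CPM (SD, n = 2 each) and did not pass (adjusted p 0.413, edgeR). Of 10 goblet cell genes 2 rose, *Zg16* and *Clca1*, and 0 fell. In this list 4 were higher and 6 lower, and 5 had an unadjusted p under 0.05 by edgeR. The summed goblet genes were 3434 and 3517 CPM with EtOH against 2916 and 2624 CPM. Most of that sum is *Fcgbp*, a mucus protein gene named after its values were seen, with 2318 ± 169 CPM and 1639 ± 73.8 CPM (SD, n = 2 each; edgeR adjusted p 0.399). Of 10 proliferation genes 0 passed in either direction, with 0 at an unadjusted p under 0.05 by edgeR and sums of 2314 and 2296 CPM against 2141 and 2007 CPM. Of 10 tuft cell genes 6 were tested and 1, *Dclk1*, fell. All 6 were lower, with a median log2 fold change of −1.50, and 5 had an unadjusted p under 0.05 by edgeR. *Il25*, *Alox5ap* and *Gnat3* were at 0 in every library, and the tuft sums were 41.4 and 22.6 CPM against 12.7 and 10.5 CPM. Of 9 Paneth cell genes and 12 enteroendocrine genes 0 passed by edgeR, with 4 and 1 at an unadjusted p under 0.05. The Paneth sum differed most within a label, at 2874 and 2104 CPM with EtOH and 4989 and 2105 CPM with the label 4-OHT, and the enteroendocrine sum was 497 and 414 against 770 and 400 CPM. At day 4, with 1 library per label, the Paneth sum was 489 CPM with EtOH and 1718 CPM with the label 4-OHT, and the enteroendocrine sum 64.4 and 298 CPM. There, 8 of 9 Paneth genes and 9 of 12 enteroendocrine genes were at least 2-fold higher, against 5.60% of all genes, beside the day 4 values of *Maf* and *Klf4*. Of the 8 epithelial genes 0 passed, 4 had an unadjusted p under 0.05 (edgeR), and their sum was 8302 and 7711 against 9702 and 10390 CPM.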

How the data were processed

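The authors deposited whole-number counts per gene, not normalized, 1 file per library. The aligner STAR and the build mm39 are named in the submitters' processing notes; version, annotation release and strand setting are not given in the sources used here. The 4 summary lines per file (19.3% to 26.7% of entries) stayed out of all totals. Symbols, positions and exon bases come from GENCODE M39 on GRCm39, the assembly of mm39, which matched 56323 of 56884 identifiers.

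Counts were tested with edgeR 4.0.16 (R 4.3.3; glmQLFit with legacy set to false, glmQLFTest), TMM scaling and filterByExpr (minimum count 10), with Benjamini-Hochberg adjustment over all genes tested and a threshold of 0.05. The SE is the absolute log2 fold change over the root of F. Day 6 used 4 libraries. The fit over both days used 6 with day as a term. Day 4 values use a prior count of 2. Day 4 ratios and their intervals use library totals without TMM factors, so they differ slightly from the ratios of the CPM shown. With no molecular identifiers mentioned, these intervals cover counting error only. Replicates differed by more than sampling noise (chi-square per degree of freedom 33.2 and 22.9).

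The factors, gene lists and tests were chosen with earlier results of these data known. All 10 factors are named; of every other list, genes past the threshold at day 6 are named, up to 5 per list by size of change and up to 10 enterocyte genes, of which 1 is not reported here; genes named outside this rule were chosen after their values were seen. Alternatives were other scaling, filters, DESeq2 1.42.0, limma-voom (limma 3.58.1), a replicate block, 4 groups, no day term, another prior count, and leaving out each library; robust and legacy forms of the edgeR test and refits of the day 6 calls on 3 libraries were added after seeing the data. On simulated day 6 counts of 14066 genes, edgeR found 50% of the 2-fold and 83% of the 4-fold changes put in; unchanged genes made up 7.64% of its calls.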

Additional observations from a re-analysis of the deposited data

How the results depend on the processing

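The count of 2 factors called at day 6 was the same under other scaling, other filters, DESeq2, limma-voom and the fit of all 6 libraries in 4 groups. It was 1 with robust quasi-likelihood, chosen after seeing the data, and 0 to 2 when single libraries were left out, also with refits chosen afterwards. The count of all genes was 839 with the replicate block, and 99 (without EtOH replicate 1) to 409 without single libraries. For enterocyte genes it was 9 to 19 without single libraries. Over both days, 1 to 2 factors and 361 to 699 genes were called without single libraries, and 361 genes without the day term. For the difference between days, DESeq2 called 6 genes. Day 6 values without single libraries changed sign for *Klf5* (−0.11 to 0.16) and *Gata4* (−0.0098 to 0.13), as did values over both days for *Hnf4a* (−0.068 to 0.015), *Klf5* (−0.17 to 0.022) and *Gata4* (−0.15 to 0.060). *Klf5* was −0.0013 without 4-OHT replicate 1; the cause was not tested. The labels do not say that replicate numbers pair the libraries; the deviations of same-numbered libraries had a correlation of 0.266 across genes. With the replicate block, 3 factors were called, *Hnf4g* being the third (log2 fold change 0.61, adjusted p 0.0299, edgeR). With 2 libraries per label, a 2-fold change can be missed.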

Other observations

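Genes that mark position along the gut and the change at weaning were also read. Of 12 positional genes, 10 were tested at day 6, and *Slc10a2*, the ileal bile acid transporter (14 and 11 counts with EtOH, 124 and 49 with the label 4-OHT), *Slc51a*, a basolateral bile acid transporter subunit (100 and 90 against 353 and 218), and *Lct* rose while 0 fell, against 2.27% and 0.235% of all genes. Their edgeR adjusted p values were 0.036, 0.0313 and 0.021. *Slc51a* shares 25.2% of its exon bases with *Pcyt1a* on the opposite strand. *Gata4*, which marks the proximal and middle small intestine, and *Onecut2* had log2 fold changes of 0.06 and 0.05 and did not pass, and *Fabp6*, an ileal gene, had 0 to 6 counts per library. *Hoxb13*, a gene of the distal colon, had 0 counts in all 6 libraries.

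Of 5 genes that come up at weaning, 4 were tested. *Sis* (sucrase-isomaltase), at 238 ± 52.6 and 660 ± 253 CPM, and *Treh*, at 12.7 ± 1.34 and 27.1 ± 2.21 CPM (SD, n = 2 each), rose, with log2 fold changes of 1.47 and 1.09 at day 6 and 0.05 and −0.11 at day 4. These 2 of 4 compare with 2.27% of all genes that rose at day 6, and both are already counted in the enterocyte list. In the fit over both days neither passed (edgeR adjusted p 0.105 and 0.148). Of 9 genes of the suckling intestine, which include *Prdm1*, 6 were tested and *Lct* alone passed, while *Ass1* (0.01) and *Fcgrt* (0.50) did not. Without regard to the test, 5 of the 6 were higher and 1 was lower at day 6, with a median log2 fold change of 0.62. *Cubn* changed more than *Lct* but did not pass (edgeR adjusted p 0.26), with 3 and 11 counts (EtOH) against 43 and 21. At day 4, 4 were higher and 2 lower, and 3 were at least 2-fold higher, against 5.60% of all genes.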
